A study of Homo sapiens with 8 samples.

Results

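The transcriptional response of the SurvNESmut-GFP clone to temozolomide (TMZ) was taken from 4 of the 8 RNA-seq libraries of the study. These were chosen by their sample labels as the 2 TMZ-exposed and the 2 untreated libraries of this clone, lettered a and b in each group. LN229 is a human glioblastoma cell line, and SurvNESmut-GFP (L2) is 1 stable clone of it. Its cells carry a plasmid for Survivin fused to eGFP in which the nuclear export signal (NES) is mutated by the substitutions L96A and L98A, so that the labels give the protein as nuclear. They were grown in G418, the drug that selects for cells with the plasmid, and were collected either without treatment or after 48 h in TMZ at 50 µM. TMZ was dissolved in DMSO, and the sources used here do not say whether untreated cells received DMSO. The other clone of the study, Surv-GFP (D6), carries the fusion with a functional NES and served here only as a comparison, again with 2 untreated and 2 TMZ-exposed libraries. One clone was sequenced for each construct, so an effect of the construct and a property of the clone cannot be told apart. The study describes its RNA-seq data as independent biological replicates measured in technical duplicate, and neither it nor the labels say which of these the letters mark. Every p-value therefore measures the spread between letters, which may be technical.

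TMZ is a methylating agent whose O6-methylguanine adducts are removed by MGMT or, after mispairing, are processed by mismatch repair into replication-dependent double-strand breaks. Such breaks activate the ATM and ATR kinases and p53, and cells arrest mostly in G2, repair the breaks by homologous recombination, become senescent or die. Survivin, the product of BIRC5, is a small member of the inhibitor of apoptosis family and a subunit of the chromosomal passenger complex, which steers chromosome alignment and cytokinesis. In dividing cells BIRC5 is itself one of the genes that are transcribed in G2 and mitosis.

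Between 15826923 and 18861603 reads were counted on genes in these 4 libraries, and 14201 genes had enough counts in the series to be tested. Levels are given as CPM, the counts per 1000000 counts, on TMM-scaled library sizes, and every fold change compares TMZ-exposed with untreated cells on the log2 scale. A gene is said to have risen or fallen where the adjusted p of edgeR's quasi-likelihood F test was under 0.05. Differences between the clones are signed, so that a larger effect is a more positive or less negative one, and come from the same model. The TMZ-exposed replicates were less alike than the untreated ones, with a chi-square per degree of freedom of 5.49 between their counts against 2.14. Among 11174 genes with a mean of at least 5 CPM, 25 differed by more than 2-fold between TMZ replicates a and b, all of them lower in a, and 4 did so between the untreated replicates. Exposed replicate a also had a larger share of reads in no gene, 14.3% against 11.2% to 12.1% in the other 3 libraries, and the part of this in any result was not tested. Of 15 glioblastoma and glial markers 11 could be tested, led by VIM with 3135 and 2873 CPM in untreated cells. GFAP, SOX9, AQP4 and CHI3L1, which could not, had at most 10 counts in any library of the clone. Among the tested glial markers, S100B had 759 and 722, SLC1A3 140 and 157 and FABP7 284 and 268 counts in the untreated libraries. Of 12 immune markers CD68 and of 6 endothelial markers VWF, with at most 9 counts, could be tested, and CD3E, CD8A, MS4A1, AIF1 and CLDN5 had 0 counts. Markers of other non-glial cells were expressed. Of 9 neuronal markers 6 could be tested, led by TUBB3 with 5354 and 5060 counts in the untreated libraries, while RBFOX3, GAD2 and STMN2 had 0 counts. Of 8 fibroblast and pericyte markers 7 could be tested, led by COL1A2 with 9216 and 8916 counts. In bulk RNA, fewer cells of one kind or phase and less RNA per cell cannot be told apart, which holds for all groups of genes given here.

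TMZ changed 5367 genes of the clone (37.8% of those tested), most of them by a small amount. After exposure 2648 genes were higher (18.6% of those tested) and 2719 were lower (19.1%). The median log2 fold change was 0.38 among the genes that rose and -0.34 among those that fell. A change of at least 1 on the log2 scale was seen for 336 risen and 250 fallen genes, and one of at least 2 for 71 and 36. Of the 1324 genes with a mean under 1 CPM 9.59% were called, against 55.7% of the 2661 genes with 100 or more. The libraries of TMZ-exposed cells lay above both untreated libraries for 34.5% of all tested genes and below both for 33.5%, and 3 called genes had overlapping libraries. For a called gene a lack of overlap was thus nearly fixed by the call and is no further support for it. By size of p, the stress genes CHAC1, SESN2 and TRIB3 led the rise and the mitotic genes KIF20A, PLK1 and AURKA led the fall.

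**Figure D1:**
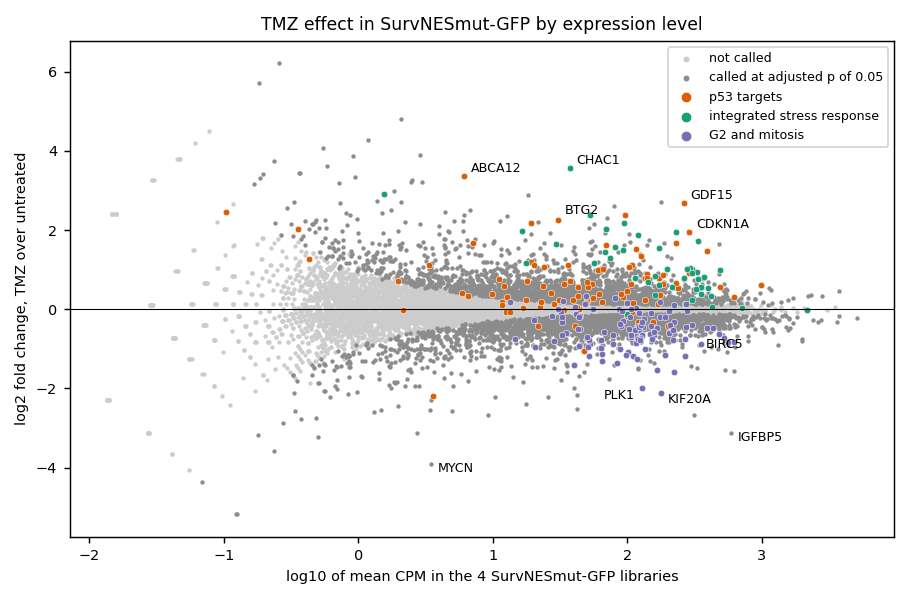
Log2 fold change (TMZ over untreated, SurvNESmut-GFP) of each gene against the log10 of its mean CPM in the 4 libraries of the clone, without 43 genes that had 0 CPM in them. Dark grey points are called, light grey points are not, and colours mark members of 3 gene lists, with mitotic genes mostly below 0 and p53 targets and stress response genes mostly above.

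BIRC5 was expressed at 407 and 414 CPM in the untreated and at 262 and 253 CPM in the TMZ-exposed libraries. Both exposed libraries lay below both untreated ones (log2 fold change -0.67, SE 0.047, adjusted p = 1.30e-08). Reads of the transgene and of the endogenous gene were counted together. In Surv-GFP cells BIRC5 went the other way, from 1152 and 1113 CPM to 1938 and 2029 CPM, and the effects differed between the clones (difference -1.48, SE 0.065, adjusted p = 1.06e-10). The partners of Survivin in the chromosomal passenger complex fell as well in SurvNESmut-GFP. CDCA8, which encodes the targeting subunit Borealin, had 114 and 114 CPM without and 61.9 and 53.01 CPM with TMZ (log2 fold change -0.98, SE 0.071, adjusted p = 1.86e-08). The scaffold INCENP changed by -0.59 (adjusted p = 8.51e-08) and the catalytic subunit AURKB by -0.54 (adjusted p = 4.84e-06). Neither gene had overlapping groups, as was so for all but 3 called genes. Thus all 4 tested genes of the complex were lower in SurvNESmut-GFP, where 19.1% of all genes fell. In Surv-GFP 3 of the 4 were lower, where 28.9% of all genes fell and 30.1% rose.

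Most genes of G2 and mitosis fell. They are transcribed late in the cell cycle under the DREAM and B-MYB-FOXM1 complexes, which act through CHR elements near the start site. CCAAT elements are also found in the promoters of these genes. Of 109 tested members 84 fell and 4 rose, against 19.1% and 18.6% of all genes, and their median log2 fold change was -0.53 against 0.0035 over all genes. Summed over the list, the level was 17627 and 17922 CPM in untreated and 11706 and 11996 CPM in TMZ-exposed cells. Among the kinases and cyclins of mitotic entry 13 of 18 fell. PLK1, the kinase that drives mitotic entry and spindle assembly, had 205 and 203 CPM without and 54.5 and 48.9 CPM with TMZ. That is 3.95 times as much in untreated cells (log2 fold change -1.98, SE 0.055, adjusted p = 7.97e-13). For AURKA, the centrosomal kinase that activates it, the levels were 328 and 341 CPM and 108 and 113 CPM (log2 fold change -1.59, SE 0.053, adjusted p = 3.10e-12). CCNB1, the cyclin B1 subunit of the mitotic kinase, went from 243 and 252 to 89.6 and 82.4 CPM (log2 fold change -1.53, SE 0.059, adjusted p = 1.40e-11). In each of the 3 genes the exposed libraries lay far below the untreated ones. CCNF (-0.98), CCNB2 (-1.01), the phosphatase gene CDC25C (-0.95) and CCNA2 (-0.71) fell too. PKMYT1, which encodes an inhibitory kinase of the same step, was the member of this role that rose (0.29, adjusted p = 0.00145).

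Of the motor and spindle genes 27 of 28 fell. This count and those of the next roles stand beside 19.1% of all genes that fell and 18.6% that rose. KIF20A, the kinesin of the central spindle, had the smallest p of all genes, with 294 and 284 CPM without and 65.3 and 67.6 CPM with TMZ (log2 fold change -2.12, SE 0.051, adjusted p = 1.54e-13). FAM83D (-1.36), the spindle pole gene ASPM (-1.18), the centrosomal kinase gene NEK2 (-1.18) and PRC1, which bundles midzone microtubules (-0.88), followed. Of 33 kinetochore and checkpoint genes 19 fell and 2 rose. The checkpoint kinase gene BUB1 had 149 and 157 CPM in untreated and 66.9 and 68.6 CPM in exposed cells (log2 fold change -1.18, SE 0.055, adjusted p = 1.31e-10). CENPE, a kinesin of the kinetochore, changed by -1.25 and CENPA, the centromeric histone, by -1.40. BUB1B (-0.67) and TTK (-0.66) fell less, and SKA1 (0.32) and ZWILCH (0.16) rose, the latter with a call that was lost under several alternatives. Without untreated replicate a 2 members of the whole list rose in place of 4. Among chromatin and cytokinesis genes 25 of 30 fell and none rose. CDC20, an activator of the anaphase-promoting complex, went from 263 and 259 to 122 and 111 CPM (log2 fold change -1.17, SE 0.054, adjusted p = 1.06e-10). The securin gene PTTG1 (-1.13), TOP2A (-0.82), the lamin gene LMNB1 (-0.77) and the proliferation marker MKI67 (-0.73) fell. The effect was larger (less negative) in SurvNESmut-GFP than in Surv-GFP for 62 members and smaller for 7, against 16.6% and 20.2% of all genes. The list's median was -0.86 in Surv-GFP, where 93 members fell against 28.9% of all genes.

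The promoters of 3 mitotic genes that fell are given here, taken in order of p among genes whose windows hold the CHR element named above. Genes of smaller p without a match or a usable window were passed over, so these examples were picked for the element. The sequences are RefSeq windows of the GRCh38.p14 assembly from 250 bases before to 50 bases after the start site, on the strand of the gene. PLK1 lies at chr16:23678639-23678938 on the plus strand, CDC20 at chr1:43358731-43359030 on the plus strand and BUB1 at chr2:110678014-110678313 on the minus strand. Capitals mark matches to the CHR letters TTTGAA or TTCGAA on either strand, with TTCAAA as the reverse of TTTGAA.
PLK1: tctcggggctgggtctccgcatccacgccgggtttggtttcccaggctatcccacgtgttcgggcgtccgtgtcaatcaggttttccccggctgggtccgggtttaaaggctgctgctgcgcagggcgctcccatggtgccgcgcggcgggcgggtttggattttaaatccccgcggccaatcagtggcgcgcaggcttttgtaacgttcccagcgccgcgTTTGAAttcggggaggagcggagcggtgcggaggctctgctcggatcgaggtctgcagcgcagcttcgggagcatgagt
CDC20: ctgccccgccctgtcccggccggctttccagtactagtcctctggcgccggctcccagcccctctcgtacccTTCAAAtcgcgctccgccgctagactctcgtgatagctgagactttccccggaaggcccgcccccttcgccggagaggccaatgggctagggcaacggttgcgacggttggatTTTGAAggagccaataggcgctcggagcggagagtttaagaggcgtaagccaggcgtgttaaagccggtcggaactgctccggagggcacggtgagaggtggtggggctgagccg
BUB1: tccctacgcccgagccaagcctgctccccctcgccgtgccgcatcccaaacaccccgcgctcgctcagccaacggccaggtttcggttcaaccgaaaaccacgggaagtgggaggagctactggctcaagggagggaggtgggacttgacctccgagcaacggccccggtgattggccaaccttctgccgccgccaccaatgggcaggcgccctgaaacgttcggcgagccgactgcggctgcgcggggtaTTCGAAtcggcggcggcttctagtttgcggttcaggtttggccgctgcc
Counted in bases before (minus) or after the first base of the start site, the match began at -29 in PLK1, at -178 and -65 in CDC20 and at 1 in BUB1. These letters were found in 53 of 69 windows of the mitotic genes that fell (76.8%) and in 11.4% of the 10454 windows of all tested genes. CCAAT, searched on both strands where a match may share bases with the CHR letters, was in 73.9% of the former and 36.8% of all tested. Of the windows of all tested mitotic genes, fallen or not, 70.5% held the CHR letters and 65.9% CCAAT. Of the windows of DNA replication genes 7.14% held the CHR letters and 55.4% CCAAT, and of those of the stress response genes that rose 63.6% held CCAAT. A match describes letters in a window and is not a bound site.

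Most targets of p53 rose. Of 91 tested members 60 rose and 8 fell, against 18.6% and 19.1% of all genes, and their median log2 fold change was 0.56. The sum over the list went from 6728 and 6795 CPM in untreated to 10438 and 11306 CPM in TMZ-exposed cells. CDKN1A encodes p21, the inhibitor of cyclin-dependent kinases through which p53 halts the cycle. Its level was 117 and 119 CPM in untreated and 429 and 492 CPM in TMZ-exposed libraries, 3.89 times the untreated level (log2 fold change 1.96, SE 0.069, adjusted p = 4.23e-12). GADD45A, another arrest gene, went from 57.4 and 61.9 to 166 and 179 CPM (log2 fold change 1.53, SE 0.068, adjusted p = 6.74e-11). The antiproliferative gene BTG2 had 9.60 and 11.4 CPM without and 40.97 and 59.3 CPM with TMZ (log2 fold change 2.25, SE 0.17, adjusted p = 4.25e-08). None of these groups overlapped, as was so for all but 3 called genes. In the arrest role 7 of 12 members rose, PHLDA3 (0.90) and ZMAT3 (0.78) among them. CCNG2, a cyclin of quiescent cells, fell (-1.07), as did CCNG1 (-0.33) and BTG1 (-0.43).

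In the role that holds MDM2 and other p53 targets beside it, 5 of 7 rose. This count and those of the next roles stand beside 18.6% of all genes that rose and 19.1% that fell. MDM2, the ligase that degrades p53, had 190.3 and 209 CPM without and 357 and 397 CPM with TMZ (log2 fold change 0.92, SE 0.066, adjusted p = 1.99e-08). TRIM22 (1.62) and PIDD1 (1.13) rose by more. RPRM, a G2 arrest gene, was the member of this role that fell, from 6.02 and 5.78 to 1.05 and 1.51 CPM (log2 fold change -2.20, SE 0.24, adjusted p = 3.23e-06). Among 12 apoptosis targets 8 rose, with changes of 1.35 for the nuclease gene AEN, 1.19 for BBC3 (PUMA), 1.12 for the death receptor gene FAS, 0.98 for PMAIP1 (NOXA), 0.78 for BAX and 0.64 for TNFRSF10B. APAF1, the core of the apoptosome, fell (-0.43). In the repair and metabolism role 15 of 21 rose. SESN2, a stress sensor that restrains mTORC1, went from 27 and 27.3 to 113 and 108 CPM (log2 fold change 2.03, SE 0.06, adjusted p = 9.41e-13). The p53-induced ribonucleotide reductase subunit RRM2B had 205 and 210.3 CPM in untreated and 559 and 591 CPM in exposed cells (log2 fold change 1.47, SE 0.051, adjusted p = 3.79e-12). TIGAR, which limits glycolysis, changed by 1.02 and the damage sensor gene DDB2 by 0.67. In the signalling role 25 of 39 rose. GDF15, a secreted stress cytokine, had 77.9 and 64.2 CPM without and 409 and 499 CPM with TMZ (log2 fold change 2.67, SE 0.10, adjusted p = 8.62e-12). GREB1 went from 29.8 and 32.5 to 166 and 156 CPM (log2 fold change 2.37, SE 0.075, adjusted p = 1.59e-12). Of the 91 members 47 had a smaller effect than in Surv-GFP and 6 a larger one, against 20.2% and 16.6% of all genes. CDKN1A was one of the 47, with 86.6 and 77.3 CPM in untreated and 908 and 975 CPM in exposed Surv-GFP cells (difference -1.56, SE 0.10, adjusted p = 5.06e-09). For BTG2 (0.037, adjusted p = 0.925) and ZMAT3 (-0.066, adjusted p = 0.611) the difference between the clones did not pass the test. The effect of PHLDA3 was larger in SurvNESmut-GFP (0.28, adjusted p = 0.00685), and so was that of CMBL, which rose here (0.65) and fell in Surv-GFP (-0.43).

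**Figure D2:**
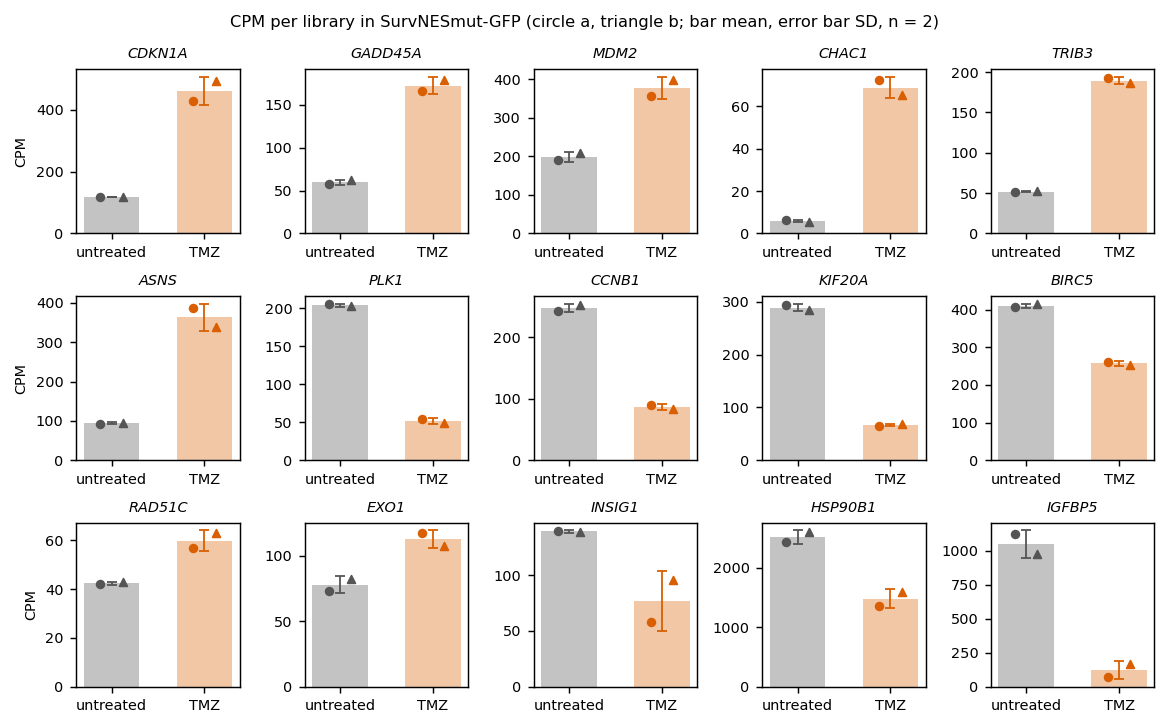
CPM in the 2 untreated and 2 TMZ-exposed SurvNESmut-GFP libraries for 15 genes of the groups described in the text. Bars are means and error bars SD (n = 2), circles are replicate a and triangles replicate b, and each axis starts at 0. In every panel the exposed libraries lie on one side of the untreated ones, and for IGFBP5 the exposed replicates a and b stand at 73.2 and 169 CPM.

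Genes of the integrated stress response rose almost throughout. In this pathway phosphorylated eIF2α slows translation while the factor ATF4 is made in excess and turns on genes for amino acid synthesis, transport and tRNA charging through CARE elements. Of 46 tested members 41 rose and none fell, against 18.6% and 19.1% of all genes, and the median log2 fold change was 0.92. Without TMZ replicate a 41 rose and 1 fell. The sum over the list was 9740 and 9664 CPM in untreated and 15240 and 14173 CPM in exposed cells. All 12 core genes rose. CHAC1, which degrades glutathione, went from 6.18 and 5.39 to 72.3 and 65.3 CPM, 11.9 times the untreated level (log2 fold change 3.57, SE 0.10, adjusted p = 7.97e-13). TRIB3, a pseudokinase that restrains ATF4, had 51.2 and 52.5 CPM without and 192 and 187 CPM with TMZ (log2 fold change 1.87, SE 0.056, adjusted p = 9.41e-13). ATF3 went from 17.3 and 16.4 to 86.7 and 89.1 CPM (log2 fold change 2.38, SE 0.093, adjusted p = 1.40e-11). In these genes the groups were far apart. DDIT3, which encodes CHOP, changed by 1.64, CEBPG by 1.30, the eIF2α phosphatase subunit PPP1R15A by 0.79 and ATF4 itself by 0.52 (adjusted p = 8.48e-07).

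Of the genes of amino acid and one-carbon synthesis 12 of 13 rose. This count and those of the next roles stand beside 18.6% of all genes that rose. ASNS, asparagine synthetase, had 92.9 and 95.7 CPM in untreated and 388 and 338 CPM in exposed cells (log2 fold change 1.94, SE 0.066, adjusted p = 3.10e-12). The mitochondrial folate enzyme genes MTHFD2 (1.71) and ALDH1L2 (2.19), the transsulfuration genes CBS (1.58) and CTH (1.97) and the serine synthesis genes PSAT1 (1.55) and PSPH (1.16) rose with it. Of 13 cytosolic tRNA synthetase genes 12 rose, among them GARS (1.05), SARS (1.01) and AARS (0.83). Among transporters 5 of 8 rose, including SLC6A9 (1.45) and the cystine carrier SLC7A11 (1.004). SLC3A2 (0.026, adjusted p = 0.706) and SLC7A5 (-0.028, adjusted p = 0.732), the 2 chains of a large neutral amino acid carrier, did not pass the test, whereas they changed by 1.89 and 1.46 in Surv-GFP. The effect was smaller than in Surv-GFP for 33 members and larger for 3, against 20.2% and 16.6% of all genes. One of the 3 was VLDLR, a lipoprotein receptor gene, which went from 10.3 and 11.4 to 27.1 and 21.4 CPM here (log2 fold change 1.16, SE 0.11, adjusted p = 6.79e-07) and changed by 0.057 in Surv-GFP (adjusted p = 0.659). For PSAT1 (0.17, adjusted p = 0.164) and SLC7A11 (-0.18, adjusted p = 0.242) the effects did not differ by the test.

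Promoter windows of 2 of these genes are shown because they hold letters of the CARE element. CHAC1 lies at chr15:40953221-40953520 on the plus strand and ASNS at chr7:97872359-97872658 on the minus strand of GRCh38.p14, and capitals mark a match to TGATGNAA on either strand.
CHAC1: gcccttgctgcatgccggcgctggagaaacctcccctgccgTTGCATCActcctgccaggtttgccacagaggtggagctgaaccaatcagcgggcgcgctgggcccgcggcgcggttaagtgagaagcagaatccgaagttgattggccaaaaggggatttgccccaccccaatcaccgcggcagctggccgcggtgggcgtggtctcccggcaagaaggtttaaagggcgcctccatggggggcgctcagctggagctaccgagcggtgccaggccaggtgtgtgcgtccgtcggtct
ASNS: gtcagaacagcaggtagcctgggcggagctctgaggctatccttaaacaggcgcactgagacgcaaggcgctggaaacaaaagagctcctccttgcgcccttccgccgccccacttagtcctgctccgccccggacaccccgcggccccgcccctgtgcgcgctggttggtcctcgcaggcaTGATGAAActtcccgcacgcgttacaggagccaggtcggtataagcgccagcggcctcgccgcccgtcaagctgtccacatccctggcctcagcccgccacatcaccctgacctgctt
The match began at position -209 in CHAC1 and at -68 in ASNS. Windows could be matched for 22 of the 41 members that rose, and 5 of them held the letters (22.7%), against 1.71% of the windows of all tested genes.

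Genes of DNA replication moved in both directions. Of 66 tested members 14 rose and 14 fell, shares close to those of all genes, and the median log2 fold change was 0.05. Without untreated replicate b 9 fell. The helicase genes MCM6, with 252 and 254 CPM without and 141 and 143 CPM with TMZ (log2 fold change -0.83, SE 0.05, adjusted p = 2.40e-09), MCM5 (-0.45) and MCM2 (-0.33) fell, and so did the sliding clamp gene PCNA (-0.34) and the thymidine kinase gene TK1 (-0.33). The polymerase subunit POLD3 (0.40), the primase gene PRIM1 (0.40), TIMELESS (0.26) and the ribonucleotide reductase genes RRM1 (0.20) and RRM2 (0.21) rose. In Surv-GFP 40 of these 66 genes fell, where 28.9% of all genes did. The effect in SurvNESmut-GFP was larger for 38 and smaller for 4, against 16.6% and 20.2% of all genes. PRIM1, for example, had 32.2 and 32.2 CPM in untreated and 42.5 and 42.2 CPM in exposed SurvNESmut-GFP cells and changed by -0.43 in Surv-GFP (difference 0.83, SE 0.13, adjusted p = 1.07e-04). Of 31 cyclin and E2F pathway genes 7 rose (22.6%) and 5 fell (16.1%), near the 18.6% and 19.1% of all genes. The G1 kinase genes CDK6 (0.35) and CDK4 (0.21) and the repressor gene E2F7 (0.64) rose. CDKN1B, which encodes p27, fell from 72.9 and 70.7 to 36.6 and 42.9 CPM (log2 fold change -0.85, SE 0.071, adjusted p = 1.10e-07).

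Among genes of homologous recombination and the Fanconi pathway more rose than fell, by small amounts. Of 54 tested members 21 rose and 2 fell, against 18.6% and 19.1% of all genes, with a median of 0.15. The number that fell was 5 without TMZ replicate b, 1 without TMZ replicate a, 1 without untreated replicate b and 0 without untreated replicate a. Among 16 genes of strand exchange 11 rose. RAD51C went from 42.02 and 42.7 to 56.9 and 62.8 CPM (log2 fold change 0.50, SE 0.072, adjusted p = 4.28e-05), and the helicase gene BRIP1 (0.39) and RAD52 (0.50) rose as well. The groups did not overlap for any of them, as was so for all but 3 called genes. For end resection, the nuclease gene EXO1 had 73.3 and 82.7 CPM without and 118 and 108 CPM with TMZ (log2 fold change 0.53, SE 0.065, adjusted p = 7.54e-06), and RBBP8, which encodes CtIP, changed by 0.46 and RAD50 by 0.34. The resolution genes EME1 (0.44) and MUS81 (0.32) rose, as did the polymerase gene POLQ (0.34), which was listed with them. FANCI rose (0.33), and FANCL (-0.19) and WDR48 (-0.21) were the 2 members that fell, both with calls that were lost under several alternatives. The effect exceeded that in Surv-GFP for 27 members and was below it for none, against 16.6% and 20.2% of all genes. In Surv-GFP 27 members fell, where 28.9% of all genes did. EXO1 changed by 0.45 in Surv-GFP, which did not differ by the test (difference 0.077, SE 0.095, adjusted p = 0.568).

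**Figure D3:**
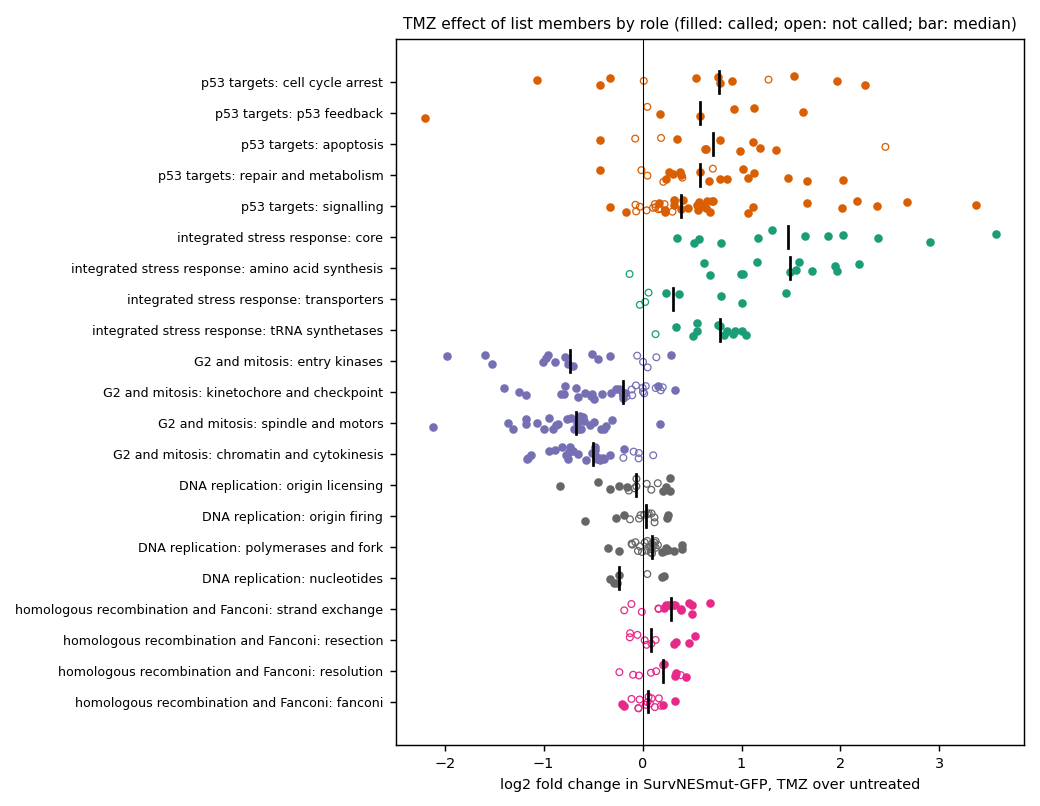
Log2 fold change of each tested member in SurvNESmut-GFP by list and role. Filled points are called, open points are not, and black bars are medians. Spindle and motor genes lie almost all below 0, the core stress response genes all lie above 0, and replication and recombination genes lie close to it.

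In the pathways that handle methylated bases, MGMT had 0 counts in all 4 libraries, which allows up to 3 counts per library, or 0.163 to 0.189 CPM. Of 7 mismatch repair genes 5 rose, where 18.6% of all genes did. PMS2 had 21.3 and 20.6 CPM without and 27.1 and 27.1 CPM with TMZ (log2 fold change 0.37, SE 0.078, adjusted p = 0.00134), and PMS1 (0.27) and MSH3 (0.19) rose less. The call of MSH3 was lost under several alternatives. EXO1, which acts in this pathway too, was another of the 5. MSH6, a subunit of the sensor of O6-methylguanine mispairs, fell from 227 and 235 to 191 and 186 CPM (log2 fold change -0.29, SE 0.047, adjusted p = 1.20e-04). Base excision repair (3 of 22 higher and 4 lower) and non-homologous end joining (3 of 18 each way) stayed near the share of all genes, and 0 end joining genes rose without untreated replicate a and 1 without untreated replicate b. The methylpurine glycosylase gene MPG fell from 24.7 and 24.3 to 16.5 and 18.3 CPM (log2 fold change -0.50, SE 0.091, adjusted p = 4.01e-04), MUTYH rose (0.45), and the Ku genes XRCC6 (-0.31) and XRCC5 (-0.24) fell. Of 17 damage checkpoint genes 2 rose and 3 fell, against 18.6% and 19.1% of all genes, and without TMZ replicate b 4 rose. ATR (0.28) was among those that rose and the G2 kinase gene WEE1 (-0.51) among those that fell. TP53BP1 changed by 0.083 (adjusted p = 0.223).

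Among the relatives of Survivin in the inhibitor of apoptosis family, BIRC3 (cIAP2) rose from 4.77 and 4.67 to 15.6 and 15.8 CPM (log2 fold change 1.73, SE 0.13, adjusted p = 4.47e-08) and BIRC2 (cIAP1) by 0.25 (adjusted p = 0.00471). XIAP had 86.2 and 91.5 CPM without and 80.7 and 79.7 CPM with TMZ and did not pass the test (log2 fold change -0.15, SE 0.057, adjusted p = 0.0505), although it did with DESeq2 size factors (adjusted p = 0.0422) and without the filter on low counts (adjusted p = 0.0482). BIRC6 changed by 0.035 (adjusted p = 0.696), NAIP fell (-0.71, adjusted p = 0.0174) at 3.36 and 3.39 CPM in untreated cells with a call that was lost in several alternatives, and BIRC7 had at most 1 count per library. In the BCL2 family, 5 of 16 rose and 6 fell, against 18.6% and 19.1% of all genes. BCL2L1, the antiapoptotic BCL-XL gene, went from 99.6 and 106 to 185 and 155 CPM (log2 fold change 0.73, SE 0.068, adjusted p = 3.82e-07), and the effector genes BAX and BAK1 (0.62) rose. The BH3-only genes BMF (-2.51), BNIP3L (-0.73) and BNIP3 (-0.65) fell, while PMAIP1 and BBC3, given above in the p53 target list, rose.

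Of the secretory factors that senescent cells release, 21 of 53 rose (39.6%) and 10 fell (18.9%), with a median of 0.18. Of all genes 18.6% rose and 19.1% fell, so the share that fell was near that of all genes. IL1A, an upstream cytokine of this secretion, went from 4.12 and 4.28 to 22.6 and 19.98 CPM (log2 fold change 2.34, SE 0.15, adjusted p = 4.13e-09). IL1B (2.23), IL6 (1.45) and IL32 (1.39) rose at low levels, with IL6 at 2.77 and 2.22 CPM in untreated and 7.60 and 6.05 CPM in exposed libraries. The chemokine gene CXCL8 had 55.3 and 58.5 CPM without and 86.3 and 96.6 CPM with TMZ (log2 fold change 0.68, SE 0.071, adjusted p = 1.38e-06). Its change in Surv-GFP was 4.77, from 12.03 and 9.66 to 305 and 286 CPM (difference -4.08, SE 0.11, adjusted p = 3.94e-13). VEGFA, an angiogenic factor, rose from 50.8 and 48.7 to 168 and 153 CPM (log2 fold change 1.69, SE 0.057, adjusted p = 3.10e-12), and INHBA by 1.41. Exposed and untreated libraries did not overlap for any of these genes, as was so for all but 3 called genes. IGFBP5 had 1120.1 and 978 CPM in untreated and 73.2 and 169 CPM in exposed cells (log2 fold change -3.12, SE 0.22, adjusted p = 1.79e-08). TIMP3 (-0.90), TGFB1 (-0.79) and SERPINE2 (-0.58) fell. The effect was smaller than in Surv-GFP for 27 members and larger for 7, against 20.2% and 16.6% of all genes. In the feedback loop of NF-kappaB, the factor behind much of this secretion, 6 of 19 genes rose and 3 fell, against 18.6% and 19.1% of all genes. In Surv-GFP 14 rose and 2 fell, against 30.1% and 28.9% of all genes there. The median was 0.03 in SurvNESmut-GFP and 0.70 in Surv-GFP. Without TMZ replicate b 6 of the 19 fell. NFKB1 fell (-0.23) and the alternative subunits NFKB2 (0.25) and RELB (0.37) rose slightly. TRAF1, a target of the pathway, fell from 33.3 and 35.5 to 10.8 and 14.7 CPM (log2 fold change -1.43, SE 0.11, adjusted p = 4.46e-08) and rose in Surv-GFP (1.94). Of 24 immediate early genes 13 rose and 2 fell, against 18.6% and 19.1% of all genes. Of these genes 7 fell without TMZ replicate b and 1 without each other library of the clone. ATF3 and IER5 (1.01) had the smallest p, and the AP-1 subunit genes JUND (0.59) and FOSL2 (0.62) rose as well.

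**Figure D4:**
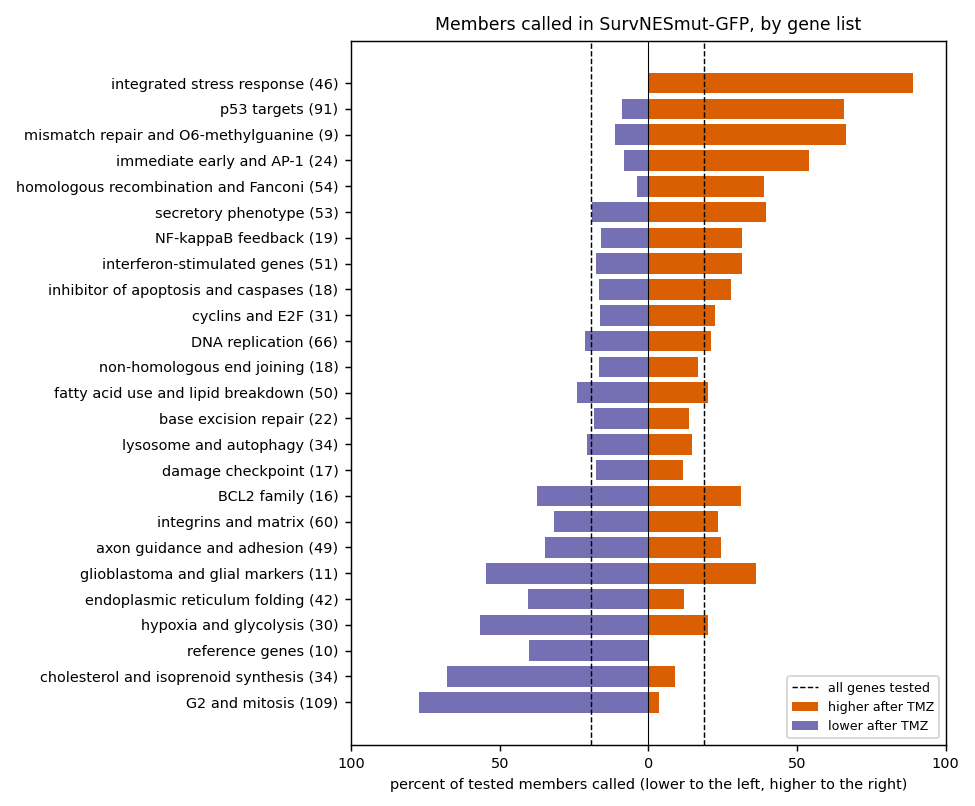
Percent of the tested members of each gene list that were called higher (right) or lower (left) after TMZ in SurvNESmut-GFP, for lists with at least 9 tested members, whose number stands in brackets. Dashed lines are the shares of all genes tested, 18.6% and 19.1%. The stress response, p53 targets and mismatch repair extend furthest to the right and mitotic and cholesterol genes furthest to the left.

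Most genes of a list of cholesterol and isoprenoid synthesis and its regulators fell. The factor SREBP2 switches on cholesterol synthesis when sterols are low. Of 34 tested members 23 fell and 3 rose, against 19.1% and 18.6% of all genes, with a median of -0.33. All 3 that rose were among the 6 genes of the prenyl side, of which 2 fell. Of 9 mevalonate genes 7 fell and of 12 sterol genes 8 fell, and none of either rose. INSIG1, which retains SREBP in the endoplasmic reticulum, went from 139.9 and 139 to 57.6 and 95.7 CPM (log2 fold change -0.87, SE 0.13, adjusted p = 9.04e-05). The exposed replicate a was lower than b, and both were below the untreated libraries. SQLE (-0.64), HMGCS1 (-0.58) and SREBF1 (-0.62) fell too. Without TMZ replicate a 17 members fell and 1 rose, and without untreated replicate b 1 rose. In Surv-GFP the list's median was -0.10 and 11 members fell, a share near the 28.9% of all genes that fell there. Among 21 glycolysis genes 13 fell and 2 rose, against 19.1% and 18.6% of all genes. LDHA, lactate dehydrogenase, went from 1258 and 1270.1 to 836 and 859.7 CPM (log2 fold change -0.58, SE 0.046, adjusted p = 7.29e-08), PFKFB3 changed by -0.84, TPI1 by -0.46, PDK1 by -0.83 and PKM by -0.32. GAPDH, which belongs to this pathway and is often used as a reference, had 2939 and 2886 CPM without and 2289 and 2392 CPM with TMZ (log2 fold change -0.32, SE 0.042, adjusted p = 1.89e-05). ACTB changed by -0.16 (adjusted p = 0.0101).

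Chaperones and enzymes that fold proteins in the endoplasmic reticulum, a list chosen after its values were seen, mostly fell. Of 22 folding genes 14 fell and 1 rose, against 19.1% and 18.6% of all genes. HSP90B1, which encodes GRP94, had 2422 and 2589 CPM in untreated and 1363 and 1587 CPM in exposed cells (log2 fold change -0.76, SE 0.058, adjusted p = 3.59e-08). HSPA5, which encodes BiP, went from 1167 and 1159 to 807 and 889 CPM (log2 fold change -0.45, SE 0.052, adjusted p = 3.83e-06), and MANF (-0.62), SDF2L1 (-0.50) and PDIA4 (-0.45) fell as well. In Surv-GFP HSPA5 rose (0.72) and HSP90B1 changed by -0.033 (adjusted p = 0.645). The effect was smaller in SurvNESmut-GFP for 29 of the 42 genes on the whole list and larger for 1, against 20.2% and 16.6% of all genes. XBP1, a factor of the unfolded protein response, rose (0.76), as did HERPUD1 (0.49), while EIF2AK3, the stress sensor PERK, fell (-0.70). Without TMZ replicate a, 12 of the 42 genes fell in place of 17.

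Other lists moved both ways, and their counts stand beside 18.6% of all genes that rose and 19.1% that fell. Of 60 integrin and matrix genes 14 rose and 19 fell. ITGA2 (0.91), ITGA3 (0.37) and the matrix genes TNC (0.54) and COL5A1 (0.51) rose, and ITGB5 (-0.65), COL3A1 (-1.73) and COL1A2 (-0.59) fell. Of 51 interferon-stimulated genes 16 rose and 9 fell, and within antigen presentation 7 of 10 rose by small amounts, among them TAP1 (0.45). Without untreated replicate b 10 of the 51 rose and 5 fell, and without untreated replicate a 5 fell. HLA-B rose as well (0.56), a gene whose reads may be shared with its close relatives. Of 49 axon guidance genes 12 rose and 17 fell, with EPHA2 (0.61) up and PLXND1 (-0.82) and ROBO1 (-0.50) down. As whole lists, fatty acid genes (10 of 50 higher, 12 lower) and lysosome and autophagy genes (5 of 34 higher, 7 lower) were near the share of all genes. The roles of the fatty acid list differed, with 9 of 22 lipase genes higher and 6 lower. Of its 28 oxidation genes 1 was higher and 6 were lower. Without TMZ replicate a 7 fatty acid genes fell, and 10 lysosome and autophagy genes rose and 4 fell. Of the latter genes 2 rose and 4 fell without untreated replicate a, 1 rose without untreated replicate b and 2 rose without TMZ replicate b. Of 11 glioblastoma and glial markers 4 rose (2 without untreated replicate b) and 6 fell, and their summed level was 4953 and 4754 CPM without and 4371 and 4242 CPM with TMZ. The glutamate transporter gene SLC1A3 rose, whereas S100B (-1.28), PDGFRA (-1.21), FABP7 (-1.25) and SOX2 (-0.81) fell. Of 7 tested fibroblast and pericyte markers 1 rose and 3 fell. ACTA2, the smooth muscle actin gene, rose from 20.9 and 19.5 to 56.5 and 63.7 CPM (log2 fold change 1.57, SE 0.082, adjusted p = 4.48e-10).

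The genes with the largest rises among those reaching 5 CPM were PVRL4, CHAC1, ABCA12, CST7, ADM2, KRT81, GDF15, KRT80, ANKFN1 and PAK6. PVRL4, which encodes the adhesion molecule nectin 4, had 0.380 and 0.333 CPM in untreated and 5.03 and 5.74 CPM in exposed libraries (log2 fold change 3.89, SE 0.29, adjusted p = 5.91e-08). The lipid transporter gene ABCA12 went from 1.25 and 0.889 to 11.1 and 11.2 CPM (log2 fold change 3.37, SE 0.19, adjusted p = 1.08e-09), and ADM2, a peptide hormone gene, from 4.28 and 4.39 to 33.4 and 30.7 CPM (log2 fold change 2.89, SE 0.11, adjusted p = 1.39e-11). The keratin gene KRT81, whose sequence is close to that of other hair keratins, had 42.6 and 52.5 CPM without and 357 and 264 CPM with TMZ, and KRT80 23.7 and 21.3 CPM and 165 and 108 CPM. In all of them both exposed libraries stood well above both untreated ones. The largest falls were those of MYCN, IGFBP5, FCRLA, A2M, SEPP1, CP, BMF, PIF1, RXRG and FXYD3. MYCN, a proto-oncogene of the nervous system, had 7.10 and 5.83 CPM in untreated and 0.234 and 0.630 CPM in exposed cells (log2 fold change -3.91, SE 0.37, adjusted p = 4.87e-07). A2M, a secreted protease inhibitor, went from 580.2 and 499 to 37.5 and 133 CPM (log2 fold change -2.67, SE 0.35, adjusted p = 1.53e-05). The helicase gene PIF1 had 27.7 and 31.4 CPM and 5.67 and 5.55 CPM (log2 fold change -2.40, SE 0.11, adjusted p = 1.17e-10). Apart from PIF1, the exposed replicate a was the lower one in each of these genes. Without it the log2 fold change of A2M was -2.02, that of FCRLA -2.05, that of CP -1.83 and that of FXYD3 -1.51, and all 4 were still called. Without replicate b they were -3.84, -3.69, -3.81 and -3.54, and those of IGFBP5, SEPP1 and MYCN -3.84, -3.36 and -4.75.

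Compared with Surv-GFP, the TMZ effect of SurvNESmut-GFP was larger in sign for 2355 genes (16.6%) and smaller for 2871 (20.2%). Which of these was the greater number depended on the processing, with 2909 larger and 2385 smaller when only library size was used for scaling and 2815 and 2493 among genes with 1 CPM in 2 libraries. Regardless of sign the effect was lower on the whole, with a median absolute log2 fold change of 0.20 against 0.32. Across the 14201 genes the effects of the clones, which share no library, had a Pearson r of 0.48 and a Spearman rho of 0.46, which is a description, since genes are not independent of each other. Both clones called 1665 genes higher and 1693 lower, 747 rose and 707 fell in SurvNESmut-GFP without a call in Surv-GFP, and 236 rose and 319 fell in SurvNESmut-GFP while moving the other way in Surv-GFP.

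Of the genes with opposite directions, SLC1A3 had 7.59 and 8.72 CPM without and 30.5 and 30.6 CPM with TMZ in SurvNESmut-GFP and 13.7 and 12.97 and 2.67 and 4.42 CPM in Surv-GFP (difference 3.82, SE 0.20, adjusted p = 1.11e-09). SEMA5A, a guidance cue, went from 25.2 and 25 to 41.03 and 35.4 CPM here and from 108 and 104 to 26.1 and 30.2 CPM in Surv-GFP (difference 2.52, SE 0.11, adjusted p = 1.54e-10). VDR, the vitamin D receptor gene, rose by 0.89 here and changed by -0.48 there, and ABLIM1, an actin-binding gene, by 1.03 and -0.56. OLFML2A (0.62 and -0.98), TMOD2 (0.40 and -1.11), FAM84B (0.13 and -1.03) and PLCE1 (0.20 and -1.19) completed this set, of which the calls of FAM84B and PLCE1 in SurvNESmut-GFP were lost under several alternatives. In the reverse direction, GEM, a small GTPase gene, had 37.8 and 31.1 CPM without and 27.1 and 25.1 CPM with TMZ in SurvNESmut-GFP and 10.1 and 8.83 and 84.5 and 82.3 CPM in Surv-GFP (difference -3.54, SE 0.13, adjusted p = 2.20e-11). The fall of GEM in SurvNESmut-GFP was not called without untreated replicate a (-0.25, adjusted p = 0.0632). SYTL5, a vesicle trafficking gene, went from 24.8 and 27.2 to 15.96 and 16.1 CPM here and from 15.9 and 17.4 to 69.03 and 66.5 CPM there (difference -2.72, SE 0.11, adjusted p = 6.36e-11). The ecto-nucleotidase gene NT5E changed by -0.30 and 1.39, DEPDC7 by -0.65 and 1.31, GPRC5A by -0.34 and 1.85, the autophagosome gene MAP1LC3B by -0.28 and 1.14 and LBH by -0.22 and 3.52, where the call of LBH in SurvNESmut-GFP was lost under several alternatives.

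**Figure D5:**
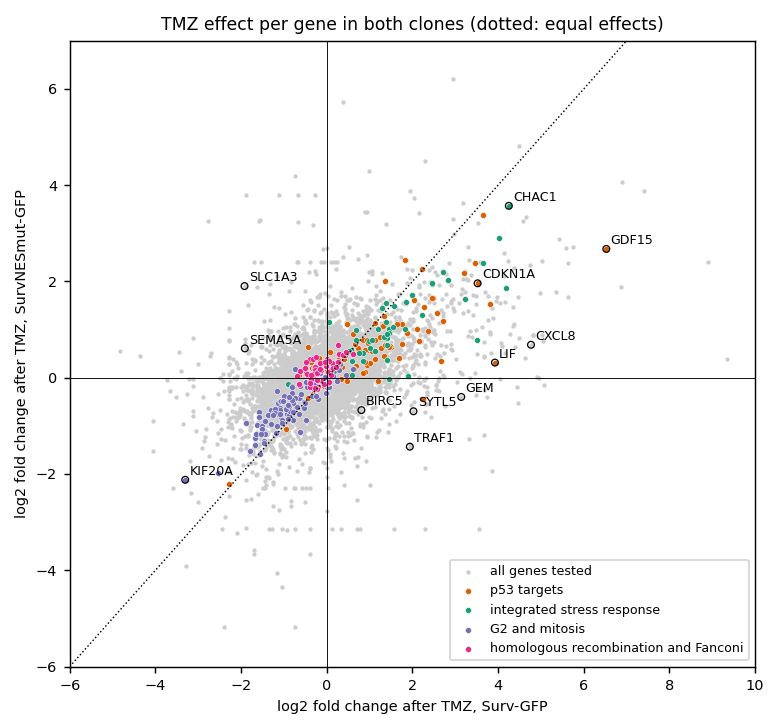
Log2 fold change after TMZ in SurvNESmut-GFP against that in Surv-GFP for 14201 genes, with 4 gene lists in colour and 12 named genes circled. Of the p53 targets 67 of 91 and of the stress response genes 38 of 46 lie right of the dotted line of equal effects, while BIRC5, GEM, SYTL5 and TRAF1 lie below 0 on the vertical and above 0 on the horizontal axis.

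Other genes moved in SurvNESmut-GFP and had an unadjusted p above 0.25 in Surv-GFP. ANK1, which encodes an ankyrin, had 32.8 and 34.9 CPM in untreated and 91.2 and 92.03 CPM in exposed SurvNESmut-GFP cells (log2 fold change 1.44, SE 0.076, adjusted p = 5.13e-10) and changed by -0.059 in Surv-GFP (difference 1.496, SE 0.14, adjusted p = 4.49e-07). DPY19L2 (1.74), C1orf226 (1.27), CROT of peroxisomal fatty acid handling (0.83), the matrix genes LTBP2 (0.81) and VCAN (0.64), and FSTL5 (0.59) rose in the same way. Among those that fell, DACT1, a regulator of Wnt signalling, went from 54.7 and 51.8 to 14.03 and 21.7 CPM (log2 fold change -1.58, SE 0.13, adjusted p = 5.66e-08) and changed by 0.083 in Surv-GFP (difference -1.67, SE 0.20, adjusted p = 8.33e-06). TM4SF1 (-0.91), the histone demethylase gene KDM5B (-0.69), PIM3 (-0.64), TLE3 (-0.64) and NACC2 (-0.53) fell, beside HSP90B1 and SERPINE2.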

How the data were processed

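RNA was sequenced from 8 libraries of 2 LN229 clones, 2 per clone and treatment, and 4 of them form the comparison described here. The authors deposited a table of raw counts, the number of reads per gene, with no normalisation. Rows of reads in no gene (11.2% to 14.3% of reads in SurvNESmut-GFP) or in several genes were left out. The submitters' processing notes name STAR 2.5.0b, Cufflinks 2.2.1 and edgeR, while the build, the counting program and strandedness are given in none of the sources used here. Of 223 genes named with a test, 65 share an exon stretch with a gene on the opposite strand in the reference annotation, for which reads cannot be told apart without strand. The authors also deposited tables of their own comparisons (log2 fold change, mean log2 CPM, F, p-value and false discovery rate), which were not used.

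Counts of 14201 of 26364 genes passing filterByExpr were scaled by TMM and fitted with 4 group means over all 8 libraries in edgeR 4.0.16 (R 4.3.3), with the legacy quasi-likelihood F test and Benjamini-Hochberg adjustment at 0.05 over all genes. CPM used TMM-scaled library sizes, and SE was the log2 fold change divided by the root of F. Alternatives used DESeq2 1.42.0 and other scalings, filters, samples and left-out libraries. Members of the gene lists, their roles and the tests were chosen with earlier results of these data known. Named genes were the study's quantitative PCR targets, the 10 genes per direction with the smallest p or the largest change at 5 CPM or more, up to 3 called members per direction and role of a list, and 8 per direction with opposite calls in the clones or a call in SurvNESmut-GFP and p above 0.25 in Surv-GFP. Members that rose or fell against the rest of a short list, members that did not pass the test and further list members were named after their values were seen, as was the list of folding genes of the endoplasmic reticulum. Some genes that these rules select are not reported here. A limit of 3 counts was used for genes with 0 counts, and it covers counting error only. Promoter windows were taken from RefSeq tables of GRCh38.p14 by gene symbol.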

Additional observations from a re-analysis of the deposited data

Results flagged for a closer look

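The TMZ effect differed between the clones by the test of the difference itself for 2355 genes whose effect was larger in SurvNESmut-GFP and 2871 whose effect was smaller. With library size alone as the scaling the counts were 2909 and 2385, and among genes with 1 CPM in 2 libraries 2815 and 2493. Of 223 named genes 165 were among them. Each difference given here is the log2 fold change of SurvNESmut-GFP minus that of Surv-GFP and passed edgeR's quasi-likelihood test. Among targets and reference genes of quantitative PCR the differences were those of BIRC5 (-1.48), CDKN1A (-1.56), BIRC3 (-1.39), XIAP (-0.55), CXCL8 (-4.08), GAPDH (0.18) and ACTB (0.37). Genes that rose in SurvNESmut-GFP and fell in Surv-GFP differed by the values of SEMA5A (2.52), SLC1A3 (3.82), FAM84B (1.15), TMOD2 (1.51), OLFML2A (1.599), VDR (1.37), ABLIM1 (1.59) and PLCE1 (1.39). Genes that fell in SurvNESmut-GFP and rose in Surv-GFP, beside BIRC5, were GEM (-3.54), SYTL5 (-2.72), NT5E (-1.69), DEPDC7 (-1.95), LBH (-3.74), GPRC5A (-2.19) and MAP1LC3B (-1.41). Among genes that rose in SurvNESmut-GFP with an unadjusted p above 0.25 in Surv-GFP the differences were those of ANK1 (1.496), DPY19L2 (1.90), VCAN (0.67), FSTL5 (0.64), LTBP2 (0.80), CROT (0.84), VLDLR (1.11) and C1orf226 (1.20). Among those that fell they were HSP90B1 (-0.73), KDM5B (-0.71), DACT1 (-1.67), SERPINE2 (-0.57), PIM3 (-0.66), TM4SF1 (-0.96), TLE3 (-0.65) and NACC2 (-0.57). Groups of 2 libraries are too small for a test of single outlying libraries. Clone and construct cannot be told apart in any of these differences.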

How the results depend on the processing

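The counts showed no sign of pairing by the letters a and b, which does not tell whether the libraries were prepared in pairs. Deviations of a from b correlated at -0.026 between the untreated and exposed SurvNESmut-GFP libraries and between -0.067 and 0.083 over all pairs of groups. With the letter as a replicate block 2569 genes were higher and 2610 lower, and the effect differed for 2277 and 2797 genes. The block ended the calls of FAM84B (adjusted p = 0.0679), MSH3 (adjusted p = 0.0517) and ZWILCH (adjusted p = 0.0564).

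All counts of changed genes stayed within 1.5 times their value in every alternative run. DESeq2's Wald test called 1866 genes higher and 2070 lower, and library size alone as the scaling called 3124 and 2236. The percent of calls that were higher was 49.3 with TMM, 47.9 with DESeq2 size factors and 58.3 with library size alone, and the percent of called differences that were larger was 45.1, 47.9 and 54.9. Leaving out 1 library gave 1810 to 2862 higher and 1938 to 2845 lower genes, and 1798 to 2458 larger and 2236 to 3051 smaller effects. Of 218 called named genes 207 kept direction and call in all alternatives. FAM84B, MSH3, ZWILCH, FANCL, LBH, PLCE1, NAIP, WDR48, BTG1, ACTB and GEM lost it in at least 1. XIAP, which was not called, passed with DESeq2 size factors and without the low-count filter. Signs turned only for genes that were not called. SLC7A5 was at 0.0079 with library size alone. Leaving out 1 library moved it between -0.060 and 0.00068, SLC3A2 between -0.00046 and 0.049 and BIRC6 between -0.066 and 0.13. The causes were not tested.

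With 2 libraries per group and 1 clone per construct, the tests cover the spread between letters. Calls were fewer at low levels, with 9.59% of genes under 1 CPM called.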
